A study of Mus musculus with 9 samples.

Results

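The genes described here are 37 imprinted protein-coding genes of the mouse, taken as a list of known imprinted genes of which every one was found among the transcripts measured. They are 37 of 35532 gene symbols, and 34 of them passed the filter of a mean of 1 CPM (counts scaled to library size) or more, as did 13366 genes in all. From general knowledge, 21 are expressed mainly from the paternal allele and 15 mainly from the maternal allele, and Gnas has promoters of both kinds. The allele named is the one read where a gene is imprinted, which is brain for Blcap and Calcr and neurons for Ube3a. The samples are 9 clones of the mouse embryonic stem cell line E14, picked from the bulk line to differ in lipid droplet size and expanded on gelatin in medium with fetal bovine serum and leukaemia inhibitory factor. Poly(A) RNA of each clone was sequenced as 1 stranded library. No droplet size is tied to a clone in the labels, so the clones (1, 4, 6, 8, 10, 11, 13, 14 and 17) form no groups, and each level is given by clone. With 1 library per clone, the differences below compare libraries, with no replicate of a clone.

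Imprinted genes carry DNA methylation set in the egg or the sperm, and as a result 1 parental copy is read while the other is silent. They lie in clusters, each governed by a control region whose parental methylation is held through early development by DNMT1 and by zinc finger proteins such as ZFP57, which bind a short methylated motif and recruit TRIM28. Many encode regulators of fetal and placental growth, and mouse embryonic stem cells in culture are known to gain or lose methylation at imprinted control regions. The tables analysed here hold no allele information, so a level is the sum of both copies. Fewer cells reading a gene and less RNA per cell cannot be told apart either.

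The RefSeq promoter windows of 8 genes whose levels are described below are printed 5′ to 3′ along the gene's own strand. Each covers 250 bases before to 50 after a start (GRCm38.p6). Every CpG is in capitals, as a place where a promoter can be methylated. Methylation of these windows was not measured here. The Peg3 window holds the start of Usp29 as well, which runs the other way.
Peg3 (chr7:6730370-6730669, minus strand): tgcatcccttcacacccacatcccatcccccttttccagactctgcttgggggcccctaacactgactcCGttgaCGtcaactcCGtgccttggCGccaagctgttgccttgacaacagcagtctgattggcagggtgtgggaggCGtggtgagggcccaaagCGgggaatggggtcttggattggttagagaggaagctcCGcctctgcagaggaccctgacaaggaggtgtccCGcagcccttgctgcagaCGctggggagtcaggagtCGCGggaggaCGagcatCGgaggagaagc
Plagl1 (chr10:13090582-13090881, plus strand): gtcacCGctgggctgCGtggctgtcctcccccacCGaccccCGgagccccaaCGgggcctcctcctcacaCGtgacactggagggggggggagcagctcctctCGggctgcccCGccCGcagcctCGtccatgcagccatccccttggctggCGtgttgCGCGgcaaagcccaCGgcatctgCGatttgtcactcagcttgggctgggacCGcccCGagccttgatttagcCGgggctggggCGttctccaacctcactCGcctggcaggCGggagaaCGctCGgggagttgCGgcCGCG
Snrpn (chr7:60005150-60005449, minus strand): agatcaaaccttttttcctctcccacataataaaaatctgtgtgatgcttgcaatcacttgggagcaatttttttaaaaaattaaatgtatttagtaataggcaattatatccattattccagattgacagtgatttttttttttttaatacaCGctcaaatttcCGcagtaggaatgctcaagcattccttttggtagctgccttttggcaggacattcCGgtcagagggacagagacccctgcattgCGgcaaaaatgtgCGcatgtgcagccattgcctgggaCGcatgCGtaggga
Mest (chr6:30737800-30738099, plus strand): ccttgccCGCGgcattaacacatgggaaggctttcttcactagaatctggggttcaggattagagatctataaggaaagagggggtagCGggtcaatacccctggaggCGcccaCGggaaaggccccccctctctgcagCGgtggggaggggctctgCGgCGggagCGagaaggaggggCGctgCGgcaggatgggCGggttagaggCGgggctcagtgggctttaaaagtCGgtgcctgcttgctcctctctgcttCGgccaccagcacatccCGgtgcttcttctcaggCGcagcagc
Zrsr1 (chr11:22971755-22972054, plus strand): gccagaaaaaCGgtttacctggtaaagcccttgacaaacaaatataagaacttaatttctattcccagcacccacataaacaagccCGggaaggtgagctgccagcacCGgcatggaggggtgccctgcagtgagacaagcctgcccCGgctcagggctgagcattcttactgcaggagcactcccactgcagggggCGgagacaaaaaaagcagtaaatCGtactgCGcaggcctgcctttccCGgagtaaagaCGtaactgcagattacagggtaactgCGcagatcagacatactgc
Nnat (chr2:157559828-157560127, plus strand): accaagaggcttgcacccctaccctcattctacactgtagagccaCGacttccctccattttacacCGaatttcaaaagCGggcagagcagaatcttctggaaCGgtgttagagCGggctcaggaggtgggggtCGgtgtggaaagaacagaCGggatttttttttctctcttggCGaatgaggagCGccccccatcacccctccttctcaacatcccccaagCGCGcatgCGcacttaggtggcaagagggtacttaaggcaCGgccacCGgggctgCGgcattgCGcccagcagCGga
Grb10 (chr11:12037371-12037670, minus strand): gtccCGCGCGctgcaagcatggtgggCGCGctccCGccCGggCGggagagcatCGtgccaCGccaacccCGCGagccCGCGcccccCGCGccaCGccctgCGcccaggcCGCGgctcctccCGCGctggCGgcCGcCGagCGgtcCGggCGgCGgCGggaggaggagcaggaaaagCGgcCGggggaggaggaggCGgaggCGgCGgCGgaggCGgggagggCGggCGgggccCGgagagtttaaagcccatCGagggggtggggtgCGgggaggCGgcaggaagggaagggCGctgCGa
Phlda2 (chr7:143502475-143502774, minus strand): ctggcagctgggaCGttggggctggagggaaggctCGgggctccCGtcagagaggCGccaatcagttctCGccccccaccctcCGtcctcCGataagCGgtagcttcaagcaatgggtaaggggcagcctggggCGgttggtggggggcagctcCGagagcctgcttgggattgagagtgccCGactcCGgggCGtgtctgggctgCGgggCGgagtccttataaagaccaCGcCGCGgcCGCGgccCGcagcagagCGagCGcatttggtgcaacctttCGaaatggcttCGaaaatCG
The Grb10 window held 45 CpGs and the Snrpn window 7, with a G+C content of 80% and 40.3%. A window was found for 31 of the 37 genes. Their median was 17 CpGs (taking for each gene its richest window), against 8 over 27025 genes with a window. The motif TGCCGC, read on both strands (GCGGCA on the other), is the one ZFP57 binds when its CpG is methylated. It was present in a window of 11 of the 31 imprinted genes (35.5%) and of 13.1% of all genes with a window. Among genes whose richest window held 10 or more CpGs, any window held the motif in 10 of 26 imprinted genes (38.5%) and 24.4% of 12388 genes. A gene with several windows has more places for a match, and of all windows taken singly 11.6% held it. The 2 copies in the Mest window and the single copies in the windows of Plagl1, Snrpn, Grb10 and Nnat are matches of letters. The windows of Peg3, Zrsr1 and Phlda2 hold none, and the control regions of several clusters lie outside them.

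Imprinted genes spread widely over the clones. The range of a gene is its highest minus its lowest clone on the log2 CPM scale, so that a range of 1 is a doubling. It reached 1 in 23 of the 34 imprinted genes, against 35.2% of all genes tested, and 2 in 9 of the 34, against 7.91% of all genes. Calcr, with a range of 3.14, is in both counts and passed the filter through clones 10 and 11, so for it a wide range follows from the filter. The same holds for Slc22a18, with a range of 2.49, which passed through clones 1, 6 and 13. The median range was 1.45 over the imprinted genes and 0.78 over all genes. By a chi-square of the counts against counting noise (Benjamini-Hochberg over all genes), all 34 differed between libraries, as did 89.4% of all genes. The weakest were Mkrn3 (adjusted p = 0.0125) and Zim1 (adjusted p = 0.00487). Low levels widen a range, so the count was repeated at higher levels. At a mean of 5 CPM or more, 13 of 24 imprinted genes had a range of 1 or more, against 23.1% of genes, with medians of 1.28 and 0.66. Of the 16 with a mean of 20 CPM or more, 8 reached 1, against 15.7% of genes, and the medians were 0.99 and 0.59. On log2(TPM + 1), which changes the unit, the scaling and the offset together, 4 imprinted genes had a range of 2 or more, against 3.17% of genes.

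**Figure D1:**
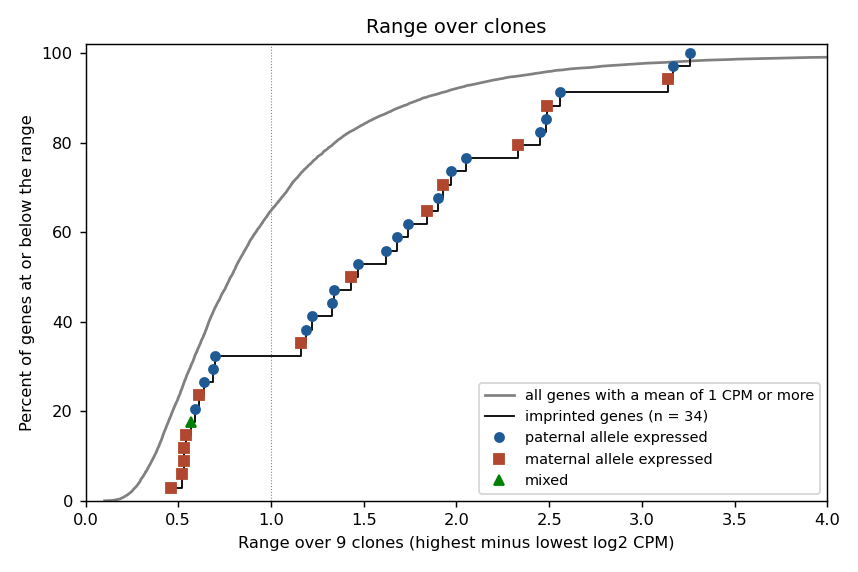
Cumulative share of genes (percent, vertical axis) at or below a given range over the 9 clones (log2 CPM, horizontal axis) for all 13366 genes tested (grey) and the 34 imprinted genes (black, with a symbol for the allele expressed). The imprinted curve lies to the right of the grey one over most of its length: 11 imprinted genes sit under a range of 1, and none of the 34 falls between Mcts2 at 0.70 and Ascl2 at 1.16.

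Clone 11 held high levels of many of these genes, and clone 10 of fewer. Clone 11 was the highest clone for 10 of the 34 (Nnat, Gnas, Peg10, Peg3, Snrpn, Magel2, Peg12, Igf2, Plagl1 and Dlk1), against 15% of all genes, and the lowest for none of them, against 14.6%. Clone 10 was the highest for 4 of the 34, against 8.33%, and lay above the median clone for 17, against 42.8%. In clone 11, 7 of the 34 lay 1 log2 unit or more above their median clone, where 3.54% of all genes did, and in clone 10 it was 4 of the 34 against 2.61%. Calcr is in both counts and passed the filter through these clones, so for it this follows from the filter. On log2(TPM + 1) the counts were 5 in clone 11 and 1 in clone 10, and no share over all genes was computed there. Clones 1, 4 and 13 each had 2 of the 34 that far above on log2 CPM, against 1.33%, 1.19% and 0.988% of all genes. Slc22a18 is in the counts of clones 1 and 13 and passed the filter through clones 1, 6 and 13, so its place there follows from the filter. The lowest clone was clone 6 for 7 of the 34 (Mcts2, Calcr, Mest, Ube3a, Magel2, Rtl1 and Impact), against 5.44% of all genes. Clone 13 lay below the median clone for 22 of the 34, against 44.7%.

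Clones 10 and 11 also differed from the other 7 in marker genes, and the part of this in the results was not tested. All 10 pluripotency markers were detected in every clone, and their summed level was 4600.4 and 4340 CPM in clones 10 and 11 and 5742 to 6479 CPM elsewhere. Dppa5a (999 and 983 CPM against 1443 to 2065 CPM), Esrrb, Pou5f1, Sox2 and Nanog were lower in both clones. Klf4 was lower in clone 10 alone and Zfp42 in clone 11 alone. Tdgf1, Utf1 and Lin28a lay within their spans over the other clones. The summed level of 8 fibroblast markers was 90.8 and 118 CPM in clones 10 and 11 and 8.12 to 25.0 CPM elsewhere, with 5 of the 8 above 1 CPM in some clone. Lum, Dcn and Postn, which define the type, were under 1 CPM in each clone and at 0 in some, and Col3a1 was at 0 in clone 17. Thy1, at 7.39 and 7.54 CPM in clones 10 and 11, lay within its span over the other clones (4.35 to 10.4 CPM). The 8 trophoblast markers summed to 496 and 530.1 CPM against 67.3 to 159 CPM, mostly from Krt8 and Krt18, with 7 above 1 CPM and the placental Plac1 under 1 CPM in each clone and at 0 in some. Primitive streak and mesoderm markers summed to 32.9 and 57.7 CPM against 5.43 to 16.6 CPM, with 6 of 8 above 1 CPM and Mesp1 at 0 in some clones. For primitive endoderm the sums were 178 and 135 CPM against 46.4 to 87.4 CPM, with 7 of 9 above 1 CPM and Sox17 and Foxa2 below it. Most of these sums came from the collagens Col4a1 (122 and 84.2 CPM) and Col4a2 (46.4 and 38.8 CPM), while the defining factor Gata4 was at 1.09 and 1.19 CPM, within its span over the other clones. Neural markers summed to 276 and 240.2 CPM against 163 to 187 CPM, with 6 of 7 above 1 CPM and Neurog2 at 0 in some clones. Nes made this difference, at 106 and 98.7 CPM against 14.4 to 28.6 CPM, while Sox1 was at 0.725 and 0.28 CPM there and reached 7.11 CPM in clone 17. Without clones 10 and 11 (an alternative chosen after seeing the data), 18 imprinted genes still had a range of 1 or more against 27.1% of genes, 5 had a range of 2 or more against 4.98%, and the medians were 1.07 and 0.68. One further library stood apart: clone 1 had the smallest total, 10783718 estimated counts, and 6.882% of its counts came from Lars2, a mitochondrial leucyl-tRNA synthetase gene whose share stayed at 1.892% or less wherever it led another clone.

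**Figure D2:**
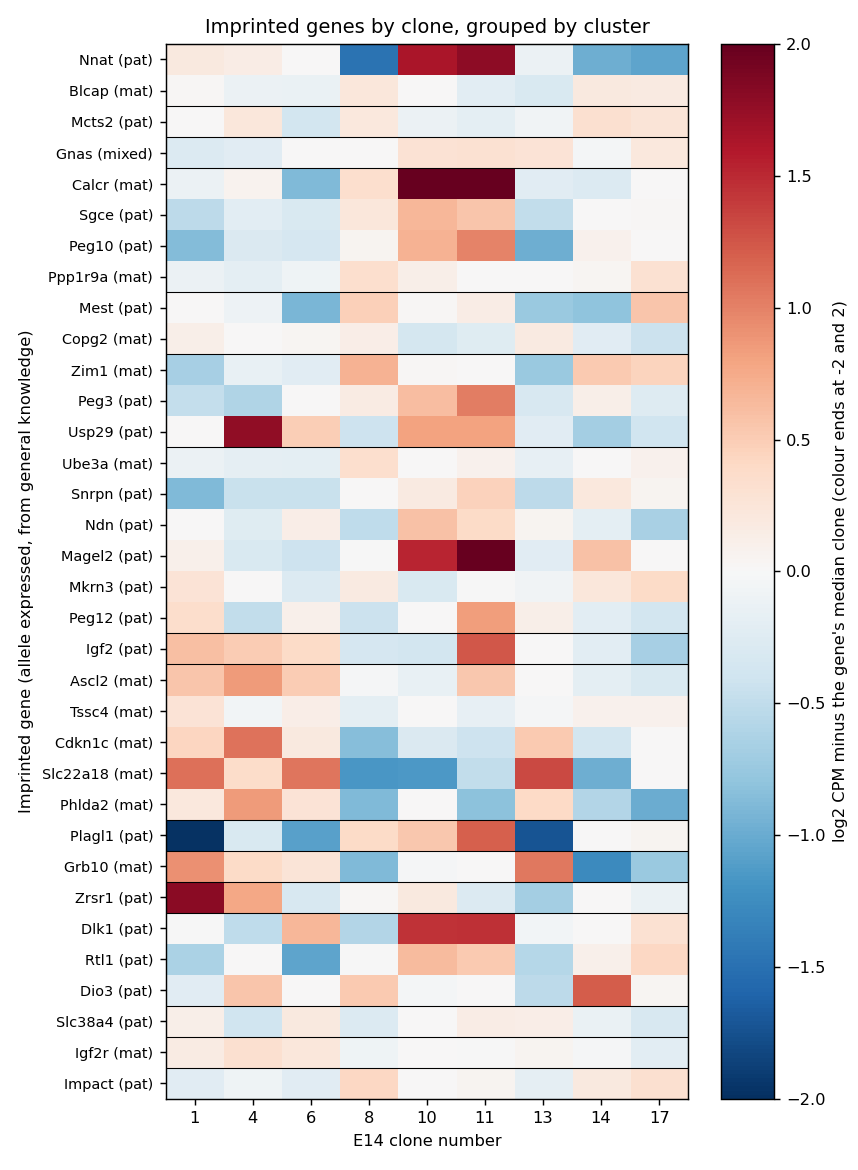
Heat map of the 34 imprinted genes past the filter (rows, grouped by cluster) in the 9 clones (columns), where colour is log2 CPM minus the gene's median clone. Red cells gather in the columns of clones 10 and 11 (Nnat 1.63 and 1.79, Dlk1, Magel2), while Zrsr1 is red in clone 1 and Usp29 in clone 4.

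Split by allele, the 20 paternally expressed genes that were tested had a median range of 1.65, with 16 at 1 or more and 6 at 2 or more. The 13 maternally expressed ones had a median of 1.16, with 7 at 1 or more and 3 at 2 or more. Both maternal counts include Calcr, which passed the filter through clones 10 and 11, and Slc22a18, which passed through clones 1, 6 and 13. The maternal class also holds Ube3a (range 0.53), imprinted only in neurons, and Blcap (0.54), maternally expressed in brain, as Calcr is. Which allele these cells read was not measured, so the classes are those of general knowledge. Over all genes tested, 35.2% reached 1 and 7.91% reached 2. The paternally expressed genes also lay lower, with a median level of 8.88 CPM against 25.1 CPM, and the part of this in their wider ranges was not tested. In clone 11, 16 of the 20 paternally expressed genes lay above their median clone, against 42.3% of all genes, and the median deviation was 0.54 log2 units. Clone 10 was above for 13 of the 20 (42.8% of all genes), with a median of 0.36. Clones 6 and 13 lay at the other end, with medians of -0.25 and -0.22, and 16 of the 20 were below the median clone in clone 13 (44.7% of all genes). The maternally expressed genes had clone medians from -0.19 in clone 14 to 0.16 in clone 1. The difference between the classes was not tested.

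**Figure D3:**
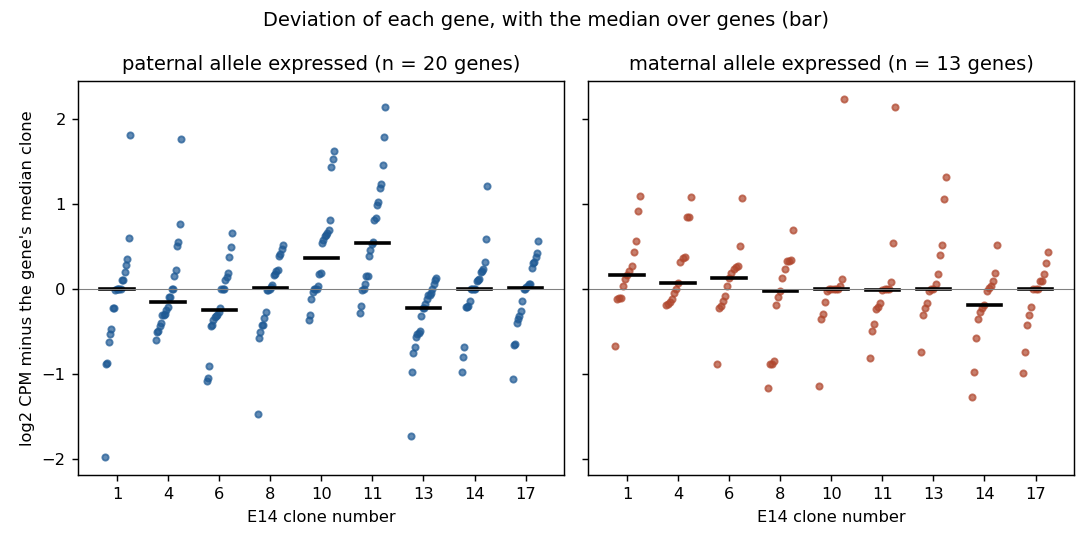
Deviation of each paternally (left) and maternally (right) expressed gene from its median clone (log2 CPM, vertical axis) in each clone (horizontal axis), 1 point per gene, with the median over genes as a bar. For paternally expressed genes the bar is highest in clone 11 at 0.54, while the maternal bars stay between -0.19 and 0.16.

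The Peg3 cluster lies on proximal chromosome 7. Peg3 (6703892 to 6730431, minus strand), a paternally expressed zinc finger protein, was at 114, 104, 158, 177, 243, 321, 126, 171 and 131 CPM in clones 1, 4, 6, 8, 10, 11, 13, 14 and 17, the order used for every list of values below. Clones 11 and 10 were highest and clone 4 lowest, 3.08-fold apart (95% interval 2.90 to 3.28, covering counting error only, as do all intervals here). Its range of 1.62 was 0.77 without clones 10 and 11. Usp29 (6730578 to 6967219, plus strand), a ubiquitin protease gene that starts 147 bases from Peg3 on the other strand, was at 5.09, 17.7, 7.20, 3.77, 9.03, 9.04, 4.31, 3.12 and 3.82 CPM. Here clone 4, the lowest clone for Peg3, stood highest, 5.69-fold over clone 14 (interval 4.08 to 8.04), and without clone 4 the range dropped from 2.45 to 1.49. Usp29 was 17.1% of the Peg3 CPM in clone 4 and between 1.82% and 4.57% of it elsewhere. Both starts lie in the printed Peg3 window. Zim1, the maternally expressed zinc finger gene of the cluster, was low, at 0.883, 1.33, 1.26, 2.51, 1.53, 1.5, 0.833, 2.20 and 2.09 CPM, with a range of 1.43. Clones 8, 14 and 17 had its highest values and clones 13 and 1 its lowest.

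In the Prader-Willi/Angelman region of chromosome 7, paternally expressed genes extend over several megabases. Snrpn (59982495 to 60140219), which encodes the splicing protein SmN, was at 110.1, 150, 150.5, 204, 231, 279.7, 141, 235 and 212 CPM. Clone 11 was highest and clone 1 lowest, 2.54-fold apart (interval 2.38 to 2.72), and without clone 1 the range of 1.34 was 0.98. Of its 31-base sequences, 34.5% also occur in other genes, chiefly Gm38393 and Snurf, and the sum of Snrpn, Snurf and Gm38393 had a range of 1.31 with the same highest and lowest clones. Magel2 (62377010 to 62381640), a MAGE family adaptor of a ubiquitin ligase, was at 1.17, 0.839, 0.767, 1.07, 3.40, 5.24, 0.906, 1.69 and 1.08 CPM. Clones 10 and 11 stood above all others, and the range of 2.56 (6.83-fold, interval 3.61 to 14.3) was 1.01 without both. Ndn, the MAGE family gene necdin, was at 9.75, 8.16, 10.7, 6.78, 14.6, 12.8, 10.2, 8.46 and 6.18 CPM. It was again highest in clones 10 and 11, with a range of 1.22, or 0.78 without them. Peg12, an intronless gene related to Frat1, was at 2.44, 1.3, 2.02, 1.36, 1.88, 3.48, 2.04, 1.60 and 1.44 CPM. Its range of 1.33 rested on clone 11 and was 0.84 without it. Mkrn3, a makorin ring finger gene between Magel2 and Peg12, had its lowest level in clone 10 (5.07 CPM) and its highest in clone 17 (8.26 CPM), a range of 0.69. Ube3a, the ubiquitin ligase gene that is imprinted only in neurons, varied between 124 CPM (clone 6) and 180.1 CPM (clone 8), a range of 0.53 that was 0.30 without clone 8.

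The Peg10 cluster lies on proximal chromosome 6. Peg10 (4747306 to 4760517), a retrotransposon-derived gene needed for the placenta, was at 428, 639.7, 626, 811, 1273, 1557, 397, 835 and 785 CPM. Clones 11 and 10 were highest and clones 13 and 1 lowest, 3.92-fold apart (interval 3.80 to 4.04), and the range of 1.97 was 1.07 without clones 10 and 11. Per transcript length, it had the highest median level of the 37 genes, 162 TPM, the deposited measure scaled for length. Sgce (4674350 to 4747207), the epsilon-sarcoglycan gene that starts 99 bases away on the other strand, was at 3.02, 3.82, 3.56, 5.22, 7.11, 6.57, 3.10, 4.45 and 4.53 CPM. It was also highest in clones 10 and 11, with a range of 1.19, or 0.76 without them. Its level was 0.422% to 0.78% of the Peg10 CPM, a narrower span than that of Usp29 beside Peg3. Calcr, the calcitonin receptor gene, maternally expressed in brain, was at 0.585, 0.686, 0.279, 0.856, 3.62, 3.35, 0.529, 0.510 and 0.647 CPM. Clones 10 and 11 stood apart from the rest, with 50 counts in clone 10 against 4 in clone 6 (13-fold, interval 4.77 to 49.5), and without both clones its mean was under 1 CPM. Ppp1r9a, which encodes the actin-binding neurabin, varied between 30.0 CPM (clone 4) and 42.9 CPM (clone 8), a range of 0.52, and Asb4, an ankyrin repeat gene, stayed under the filter with at most 0.507 CPM.

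**Figure D4:**
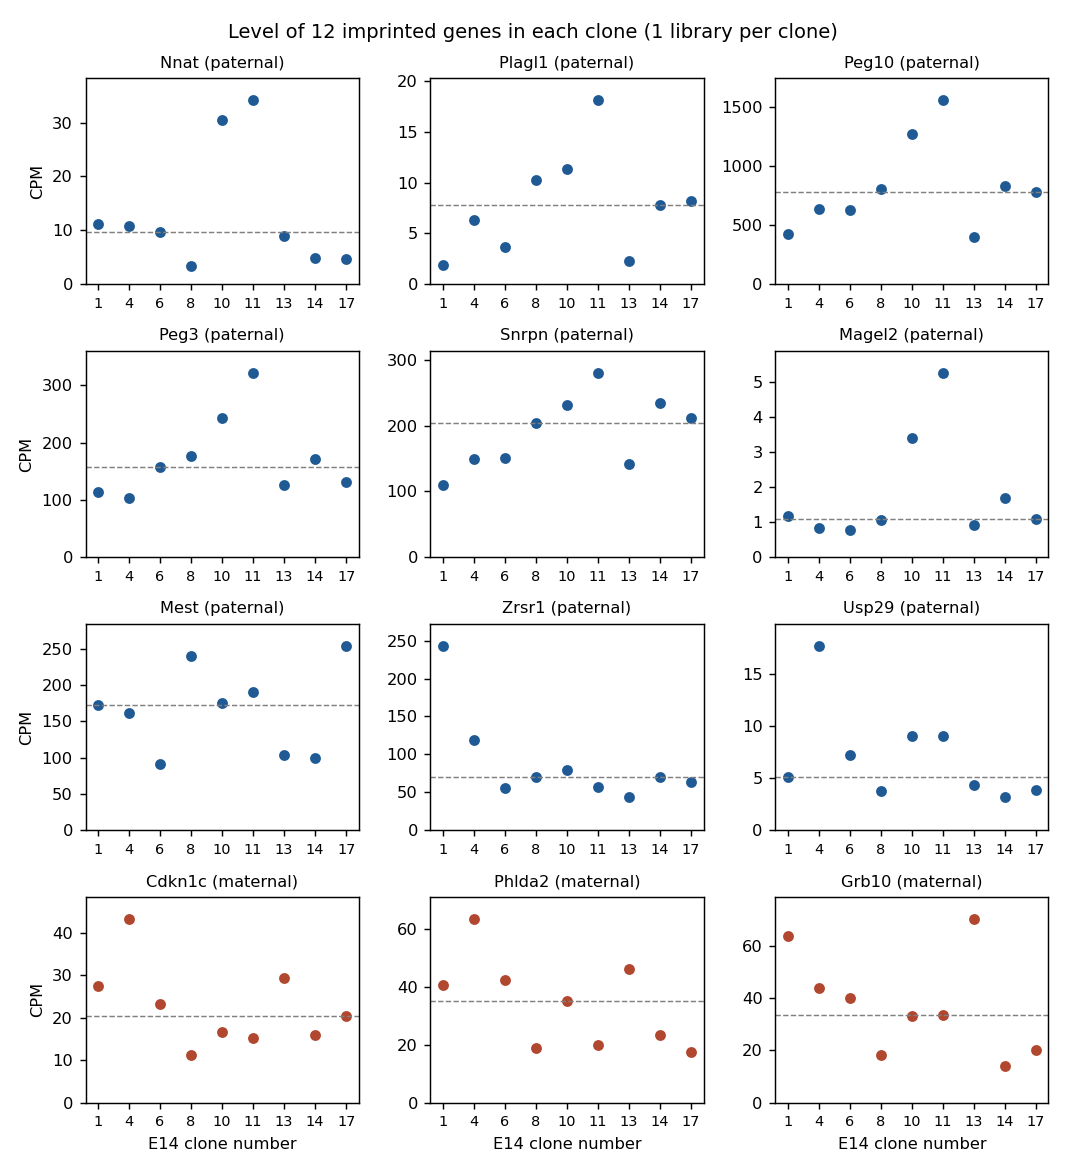
Level of 12 imprinted genes in CPM (vertical axes, each starting at 0) in the 9 clones (horizontal axes), 1 point per clone and a dashed line at the median clone. Peg10, Peg3, Nnat, Magel2 and Snrpn peak in clone 11, Zrsr1 in clone 1 at 243 CPM, Usp29, Cdkn1c and Phlda2 in clone 4, and Grb10 in clone 13 at 70.3 CPM.

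Nnat and Plagl1 had the largest ranges of the 34 genes at the prior count of 2, with Calcr next at 3.14. At a prior count of 0.5 Calcr came first, at 3.53, before Nnat at 3.30 and Plagl1 at 3.24. Nnat (chromosome 2, 157560078 to 157562522), which encodes neuronatin, a small membrane protein, was at 11.2, 10.8, 9.77, 3.43, 30.5, 34.1, 8.98, 4.88 and 4.60 CPM. The clones fell into high (10 and 11), middle (1, 4, 6 and 13) and low (8, 14 and 17) levels, with 9.95-fold between the ends (interval 7.39 to 13.7). Its range of 3.26 was 1.67 without clones 10 and 11. Nnat lies within an intron of Blcap, a gene maternally expressed in brain, which stayed between 14.6 CPM (clone 13) and 21.4 CPM (clone 8), a range of 0.54. Nnat was therefore 16.0% of the Blcap CPM in clone 8 and 217% in clone 11. Plagl1 (chromosome 10, 13060504 to 13131694), a zinc finger transcription factor also called ZAC1, was at 1.88, 6.29, 3.63, 10.3, 11.4, 18.1, 2.27, 7.85 and 8.19 CPM. Clones 1 and 13 were low and clone 11 high, 9.64-fold apart (interval 6.13 to 16.5), with a range of 3.17, or 2.37 without clones 10 and 11. Between 94.5% and 100% of its counts came from transcripts that start between 13090691 and 13091013, at the printed window.

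Mest (chromosome 6, 30723547 to 30748465), a gene of the alpha/beta hydrolase fold expressed in mesoderm and fat, was at 173, 161, 91.7, 239.8, 176, 191, 103, 99.4 and 254 CPM. Clones 17 and 8 were highest and clones 6, 14 and 13 lowest, 2.77-fold apart (interval 2.60 to 2.95), so the order differed from that of Peg3 or Nnat. Its main start, at 30738050, gave 94.2% to 99.2% of the counts. Copg2, a coatomer subunit gene that overlaps the end of Mest on the other strand, varied between 43.1 CPM (clone 17) and 65.7 CPM (clone 13), a range of 0.61. Mest shares 22.0% of its 31-base sequences with Copg2, and since the counting is not stated to use strand, reads there cannot be told apart. Mest was 153% to 589% of the Copg2 CPM.

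The Dlk1-Dio3 cluster on chromosome 12 holds 3 paternally expressed coding genes, and its noncoding maternal RNAs are not analysed here. Dlk1 (109452823 to 109463336), a membrane protein related to Notch ligands, was low, at 0.975, 0.648, 1.64, 0.607, 2.93, 2.97, 0.944, 0.984 and 1.26 CPM. Clones 10 and 11 were highest (range 2.05, or 1.24 without them). Rtl1 (109589193 to 109600330), a retrotransposon-derived gene active in placenta and muscle, was at 5.12, 8.01, 3.80, 7.96, 12.5, 11.6, 5.36, 8.60 and 10.7 CPM. Clones 10, 11 and 17 were highest and clone 6 lowest, 3.29-fold apart (interval 2.42 to 4.58). Dio3 (110279068 to 110281097), the deiodinase that inactivates thyroid hormone, was at 0.878, 1.60, 1.05, 1.57, 1.01, 1.05, 0.680, 2.62 and 1.08 CPM. Clone 14 was highest, and without it the range of 1.74 was 1.08.

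Zrsr1 (chromosome 11, 22972005 to 22976496), a retrotransposed splicing factor gene within an intron of Commd1, was at 243, 119, 55.5, 70.4, 79.1, 57.0, 43.4, 69.5 and 63.0 CPM. Clone 1, followed by clone 4, stood above the others, 5.61-fold over clone 13 (interval 5.12 to 6.15), and without clone 1 the range of 2.48 was 1.45. Clone 1 is the library with the large Lars2 share, and the part of this in the Zrsr1 level was not tested. Its host Commd1, a regulator of copper and NF-kappaB, was highest in clone 1 (117 CPM) and lowest in clone 17 (58.4 CPM), a range of 1.00. Zrsr1 was thus 208% of the Commd1 CPM in clone 1 and 44.3% in clone 13. Commd1 was also low in clones 8 and 14 (58.8 and 61.2 CPM). Chromosome 11 as a whole lay lower in clones 8, 14 and 17 (medians of -0.405, -0.363 and -0.391 log2 units). The part of this in the Commd1 range was not tested. Zrsr1 shares 7.97% of its 31-base sequences with Commd1.

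Of the growth factor genes, Igf2 (chromosome 7, 142650766 to 142666816), a paternally expressed fetal growth factor, was at 5.96, 5.60, 5.12, 3.03, 2.98, 9.41, 3.89, 3.35 and 2.41 CPM. Clone 11 was highest, and without it the range of 1.90 was 1.25. This value is uncertain, since 61.9% of its 31-base sequences occur in the overlapping gene model Gm49394. The sum of both had a range of 1.54, with clone 11 highest. Igf2r (chromosome 17, 12682406 to 12769664), the maternally expressed receptor that clears IGF2, was even over the clones, with 108 CPM in the lowest clone (17) and 156 CPM in the highest (4), a range of 0.53. Grb10 (chromosome 11, 11930508 to 12038683), an adaptor that restrains insulin and IGF signalling and is maternally expressed in most tissues, was at 63.6, 43.8, 40.1, 18.1, 33, 33.5, 70.3, 13.9 and 20 CPM. Clones 13 and 1 were highest and clones 14, 8 and 17 lowest, 5.07-fold apart (interval 4.34 to 5.96). Chromosome 11 as a whole lay lower in clones 8, 14 and 17, with medians over its 1071 genes of -0.405, -0.363 and -0.391 log2 units. After subtracting the median of 10 flanking genes within 5 Mb, the range of Grb10 was 2.06 in place of 2.33. Its start at 12037401, at the printed window, gave 81.1% to 98.9% of the counts.

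The Kcnq1 cluster on distal chromosome 7 holds maternally expressed genes, several of which restrain growth. Cdkn1c (143458339 to 143461050), the cyclin-dependent kinase inhibitor p57, was at 27.4, 43.2, 23.2, 11.2, 16.6, 15.2, 29.3, 15.8 and 20.3 CPM. Phlda2 (143501545 to 143503150), a pleckstrin domain gene that limits placental growth, was at 40.6, 63.4, 42.3, 18.8, 35.1, 19.8, 46.2, 23.5 and 17.6 CPM. Each was highest in clone 4, followed by clone 13, and clone 8 was among the lowest. The ratio of highest to lowest clone was 3.86 (interval 3.23 to 4.63) for Cdkn1c and 3.60 (interval 3.12 to 4.17) for Phlda2. Slc22a18, a transporter gene between them, was at 2.63, 1.52, 2.58, 0.428, 0.435, 0.769, 3.10, 0.510 and 1.15 CPM. Clones 13, 1 and 6 were high and clones 8, 10 and 14 low, 7.23-fold apart with a wide interval (3.05 to 20.8). Without clones 1, 6 and 13 the mean of Slc22a18 was under 1 CPM. Ascl2, a transcription factor of the trophoblast, was at 3.41, 4.19, 3.28, 2.21, 2.03, 3.35, 2.27, 1.97 and 1.8 CPM. Its range of 1.16 was 0.87 without clone 4. Tssc4, in the same cluster, was even, between 22.0 CPM (clone 8) and 30.3 CPM (clone 1), a range of 0.46, and Kcnq1 itself, a potassium channel gene, reached at most 0.5 CPM and stayed under the filter.

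Gnas (chromosome 2, 174284320 to 174346744) encodes the stimulatory G protein alpha subunit from its most downstream main promoter, which most tissues read from both alleles. Upstream promoters give the maternal NESP55 and paternal XL-alpha-s products, and a further paternal start lies at exon 1A. The gene sum varied little, with 70.7 CPM in the lowest clone (1) and 105 CPM in the highest (11), a range of 0.57. In the estimated split, the 4 main starts did not all follow the same order of clones. Transcripts from the most upstream start (174284320 to 174285358) were at 6.37, 13.3, 13.9, 9.92, 7.91, 7.36, 18.2, 13.8 and 11 CPM, highest in clone 13 and low in clones 1, 11 and 10. The next start (174297859) gave between 0.754 CPM (clone 8) and 5.13 CPM (clone 4), and the third (174327570 to 174328023) between 2.09 CPM (clone 6) and 7.16 CPM (clone 4). The most downstream of the 4 (174330006 to 174330287) gave between 46.1 CPM (clone 4, 63.4% of the counts) and 91.7 CPM (clone 11, 87.5%). With starts joined within 1000 bases, clone 4 thus had the lowest level from the downstream start and the highest from both middle ones. Joined within 100 bases, the third start split into parts that differed: the part at 174327699 to 174327768 was highest in clone 4 (6.21 CPM), and those at 174327570 and 174328023 were highest in clone 1 (2.55 and 1.94 CPM). The most upstream part, at 174284320, was then highest in clone 14 (10.5 CPM) and not in clone 13. These splits are estimates, since transcripts that differ in the first exon share most of their sequence. Of the 31-base sequences of Gnas, 11.6% also occur in Gm20721.

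**Figure D5:**
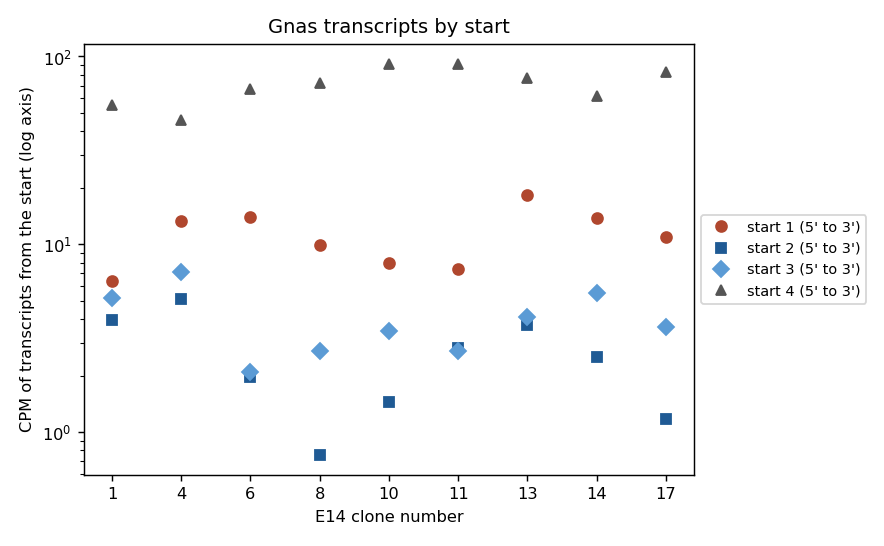
CPM of Gnas transcripts (log axis) in the 9 clones (horizontal axis), grouped by annotated start (starts within 1000 bases joined) and numbered 5′ to 3′. Start 4 lies between 46.1 and 91.7 CPM in every clone, above start 1 (6.37 to 18.2 CPM) and above starts 2 and 3, which are both highest in clone 4.

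The remaining genes varied little or were low. Impact, a regulator of the translational stress response, was lowest in clone 6 (266 CPM) and highest in clone 8 (414 CPM), a range of 0.64. Slc38a4, an amino acid transporter, was lowest in clone 4 (169 CPM) and highest in clone 6 (254 CPM), a range of 0.59. Mcts2, a retrotransposed gene within H13, was lowest in clone 6 (12 CPM) and highest in clone 14 (19.5 CPM), a range of 0.70. Nap1l5, a retrotransposed relative of nucleosome assembly proteins, reached 1.51 CPM in clone 17 and had a mean under 1 CPM. Per length, Peg10 was followed in median level by Snrpn at 157 TPM, Impact at 134 TPM, Mest at 123 TPM and Slc38a4 at 104 TPM. The clone ranges of these 5 overlap, for example 83.5 to 359 TPM for Peg10 and 79.4 to 121 TPM for Slc38a4. Of the 5, Impact and Slc38a4 had ranges under 1.

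The median of flanking genes outside the imprinted lists was steadier than the imprinted genes, as a median over several genes tends to be. For 32 of the 34 genes with at least 3 other genes within 2 Mb, the median of those neighbours had a median range of 0.18, and it reached 1 beside Ube3a alone, where the 3 neighbours include Snurf and Gm38393. After subtracting the neighbours' median in each clone, 22 of the 32 genes had a range of 1 or more, against 21 before. The same step left 32.6% of 13267 genes at 1 or more, against 35.1% before. Ube3a made the difference, at 1.00 after and 0.53 before. Within 5 Mb, where each of the 34 had 10 or more neighbours, the count was 23 before and after, and over all genes the share was 35.2% before and 32.3% after. For Nnat the 47 neighbours stayed between -0.05 and 0.08 log2 units, and its range was 3.28 after subtraction. For Plagl1 the range was 3.11 after subtracting 17 neighbours, and for Peg10 it was 2.08.

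Most genes on a list of imprint maintenance and related methylation and chromatin genes had a range under 1. All 30 on the list passed the filter, 7 had a range of 1 or more, against 35.2% of all genes, and their median range was 0.77. They lie at high levels, with a median of 209 CPM, and of all genes averaging at least 20 CPM, 15.7% reached 1 and the median range was 0.59. Dppa3, which shields maternal methylation in the egg and zygote, had the widest range of the list, 3.22, with 8.33 CPM in clone 17 and a peak of 78.9 CPM in clone 4. The oxidase gene Tet3 had a range of 1.78, lowest in clone 4 (5.03 CPM) and highest in clone 11 (17.7 CPM). Tet2, of the same family, was lowest in clone 11 (76.1 CPM) and highest in clone 8 (185 CPM), a range of 1.28. The de novo methyltransferase genes Dnmt3b and Dnmt3a were both highest in clone 11 and lowest in clone 1, with ranges of 1.22 and 1.13. Ezh2, the Polycomb methyltransferase, and Cbx5, heterochromatin protein 1 alpha, had ranges of 1.13 and 1.04 and were lowest in clone 1. Zfp57 lay between 126 CPM (clone 10) and 245 CPM (clone 17), a range of 0.96, Trim28 between 2466 and 4310.4 CPM (0.81), and Dnmt1 between 359 and 559.5 CPM (0.64).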

How the data were processed

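Each of the 9 libraries is a deposited kallisto table. The estimated counts and TPM values of 115270 transcripts are as deposited by the authors, per the file headers. Per the submitters' processing notes, CASAVA 1.8, FastQC, Trimmomatic 0.33 and kallisto 0.43.1 were used, with builds mm10 and GRCm38. The sources used here do not give the annotation release. Reads from near-identical transcripts are apportioned by kallisto, so such genes can exchange counts.

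Of the transcripts, 113580 (98.53%) matched GENCODE M21 by identifier and were summed to 35532 gene symbols. Totals ran from 10783718 (clone 1) to 14309662 (clone 6) estimated counts, and 3 counts stood for 0.209 to 0.293 CPM. CPM used TMM factors of edgeR 4.0.16 (R 4.3.3), and log2 CPM a prior count of 2. Counts were rounded for the chi-square against counting noise, whose threshold was an adjusted p of 0.05. Its p measures only that libraries differ. Fold intervals are exact 95% intervals. Scripts were tested on simulated data.

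The gene lists, alleles and members were chosen with earlier results of these data known. Members with a range of 1 or more were named clone by clone, the others by lowest and highest clone, and from the other lists the genes with a range of 1 or more. Zfp57, Trim28 and Dnmt1 were named besides for their known role. Alternatives were DESeq2 1.42.0 size factors, other filters, a prior count of 0.5, log2(TPM + 1), protein-coding genes alone, 5 Mb flanks, starts joined within 100 bases, and clones left out. Beyond that chi-square over the 9 libraries, no clone was tested against another.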

Additional observations from a re-analysis of the deposited data

How the results depend on the processing

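With a mean of 5 CPM or more, 13 imprinted genes had a range of 1 or more and 5 had 2 or more, of 24 tested in place of 34, and 23.1% and 3.38% of all genes did so. On log2(TPM + 1), 4 had a range of 2 or more and the median range was 1.16, against 3.17% and 0.75 over all genes; the unit, the scaling and the offset change together there, and the cause was not tested. Ranges of some high genes were wider there (Peg10 2.09, Peg3 1.78, Snrpn 1.57, Gnas 0.73). Without clones 10 and 11, 5 had a range of 2 or more and the median was 1.07. Leaving out each clone in turn gave 21 to 23 genes with a range of 1 or more (31.9% to 34.5% of all genes), 7 to 9 with 2 or more (6.65% to 7.68%), medians of 1.22 to 1.44, and 32 to 34 genes beyond counting noise. DESeq2 size factors, a prior count of 0.5, protein-coding genes alone and no filter kept these 4 results within 1.5 times. Of 563 ranges of single genes recomputed, 521 stayed within the counting interval and 42 moved. On log2(TPM + 1) the ranges of Zim1, Peg12 and Ascl2 were 0.76, 0.89 and 0.90, and those of Calcr, Magel2, Slc22a18 and Rtl1 were 1.21, 1.15, 1.55 and 1.06. DESeq2 size factors moved the median of all genes by 0.012 log2 units or less in size. No paired analysis was possible because the labels give no groups. Depth limits Calcr, Magel2, Slc22a18, Dlk1, Dio3, Zim1 and Peg12, each with 17 counts or fewer in its lowest clone.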

Other observations

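A further list of 43 imprinted genes and host genes held 34 that were found here, of which 21 passed the filter, and 9 of these had a range of 1 or more, against 35.2% of all genes. Their median range was 0.86. Zdbf2, a paternally expressed gene of chromosome 1, was lowest in clone 1 (67.3 CPM) and highest in clone 11 (178 CPM), a range of 1.40. Pon2, a paraoxonase gene near Peg10, was highest in clones 10 and 11, at 12.1 and 11.5 CPM against 3.71 to 6.89 CPM elsewhere (1.67). Osbpl5, a lipid transfer gene beside Phlda2, was also highest in those clones, at 5.87 and 5.73 CPM against 1.43 to 3.07 CPM elsewhere (1.93). Ddc, the decarboxylase gene next to Grb10, was lowest in clone 11 (18 CPM) and highest in clone 1 (48.0 CPM), a range of 1.41. Gab1, an adaptor gene of growth factor signalling, was lowest in clone 1 (165 CPM) and highest in clone 14 (394 CPM), a range of 1.25. Tspan32, Begain, Qpct and Commd1 had ranges of 1.92, 1.81, 1.18 and 1.00.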
